A study of Mus musculus with 9 samples.

Results

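EC2 is 1 of 4 endothelial labels in a single-cell RNA sequencing study of the mouse thyroid, and its cells carry transcripts for the uptake of fatty acids. Its members were the cells that the authors' deposited annotation labels EC2, which were 409 of 10186 cells (4.02%). The other endothelial labels held 1603 (EC1), 365 (EC3) and 1046 cells (EC4). Male C57BL/6 mice of 10 to 12 weeks by the design text, or 10 to 14 weeks by the protocol, received antibody once, into the peritoneum, and the labels give day 7 for the samples. RW mice, the controls, received an antibody against ragweed at 40 mg/kg. In aJ1aJ2 mice the Notch ligands were blocked with antibodies against Jag1 and Jag2 at 20 mg/kg each. In aN1aN2 mice the receptors were blocked with antibodies against Notch1 at 5 mg/kg and Notch2 at 10 mg/kg. Each of the 9 samples pooled 6 mice, and the pool was the replicate, so that p-values measure the spread between pools.

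Capillary endothelium of muscle, heart and fat moves fatty acids from blood to the tissue. Lipoprotein lipase (Lpl), held on the luminal surface by Gpihbp1, frees them from lipoproteins, Cd36 takes them up, and Fabp4 and Fabp5 carry them in the cytosol. Meox2 and Tcf15 form a transcription factor pair that drives this programme, and Aqp7 conducts glycerol. Capillaries around thyroid follicles are known for the opposite specialisation, a fenestrated wall whose pores are closed by diaphragms of Plvap, and Notch signalling shapes arterial, capillary and tip cell states of endothelium in general.

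EC2 held 37, 29 and 15 cells in RW 1, 2 and 3, 16, 75 and 145 in aJ1aJ2 1, 3 and 4, and 31, 38 and 23 in aN1aN2 1, 2 and 3. The tests used the 7 samples with at least 20 EC2 cells, which left out RW 3 and aJ1aJ2 1. The sums of unique molecular identifiers (UMIs) over EC2 cells in these samples ranged from 51365 to 498057. EC2 cells had a median of 2757 UMIs and 1342 genes, and were shallower in aN1aN2 (sample medians 1271 to 1819 UMIs) than in the fitted RW samples (3657 and 4037) or aJ1aJ2 samples (2920 and 3177). The sample identifiers in the titles fall into 3 ranges, called here series A (RW 3, aJ1aJ2 1), B (RW 1, RW 2, aJ1aJ2 3, aJ1aJ2 4) and C (aN1aN2 only), so that receptor blockade and series C cannot be told apart. RW 3 stood apart with Plvap at 1129 CPM (UMIs of a gene per 1000000 UMIs of the label's sum) in its 15 EC2 cells, against 114 CPM in RW 1 and 34.3 in RW 2. Of the 103 Plvap UMIs in RW 3, 66 lay in 1 cell. Of 10171 barcodes, 15 occurred in several libraries, 3 of them in EC2 cells and none in EC2 cells of both libraries. How the labels were made is not given in the sources used here, so a cell whose marker genes changed could have been labelled otherwise, and the share of EC2 cells is not compared between groups.

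In control thyroids EC2 was set off from the other 3 endothelial labels by genes of lipid and water transport. The label was checked on RW 1 and RW 2, the 2 controls with enough cells. Levels are CPM of the summed UMIs, and since the labels came from these same transcripts the values describe the label and are not tested. Timp4, a tissue inhibitor of metalloproteinases, was at 683 CPM in RW 1 and 1071 in RW 2 in EC2, and at means of 1.02 in EC1, 23.1 in EC3 and 3.59 in EC4. Aqp7 was at 375 and 351 CPM in EC2 and at most 44.9 in either sample of the other labels. Cd36 was at 2857 and 2639 CPM in EC2 and at means of 62.8 in EC1, 345 in EC3 and 73 in EC4. Both samples placed all 5 marker genes highest in EC2. The water channel Aqp1 was at 3445 and 4541 CPM, with means of 410 in EC1, 579 in EC3 and 249 in EC4. Fabp4 was at 27928 and 24066 CPM against 1520 in EC1, 4795 in EC3 and 1333 in EC4. Summed over the 5 genes, EC2 had 32668 to 35289 CPM, EC1 1950 to 2039, EC3 4505 to 7028 and EC4 1524 to 1794.

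**Figure D1:**
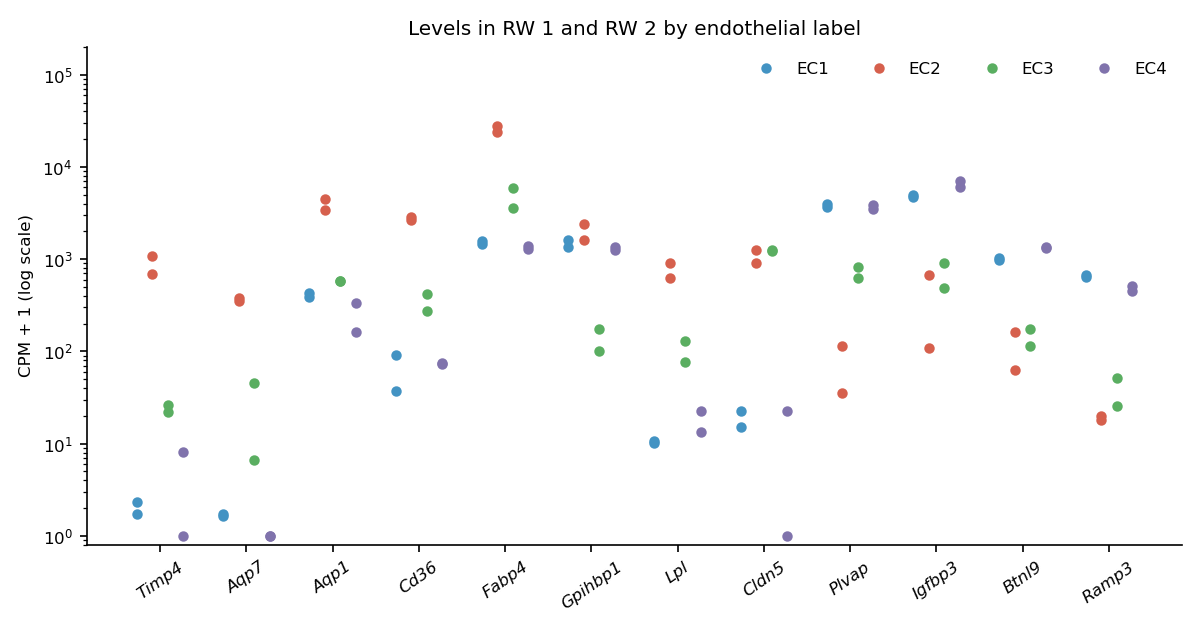
CPM + 1 on a log axis for 12 genes in RW 1 and RW 2 (1 point per sample) in EC1, EC2, EC3 and EC4. Timp4, Aqp7, Aqp1, Cd36, Fabp4 and Lpl were highest in EC2 in both samples, Cldn5 was shared with EC3, and Plvap, Igfbp3, Btnl9 and Ramp3 were highest in EC1 and EC4.

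The fatty acid programme around these markers was present as well. Lpl was at 622 and 908 CPM in EC2, and the highest value in another endothelial label was 127 in EC3. Meox2 was at 289 and 317 CPM in EC2 and between 0 and 83.9 in the other endothelial labels. Its partner Tcf15 was at 892 and 1054 CPM in EC2 and between 71.8 and 188 in the other endothelial labels. Fabp5 was at 1011 and 1448 CPM in EC2 and between 49.6 and 185 in the other endothelial labels. Gpihbp1 did not set EC2 apart, since its 1609 and 2425 CPM lay beside 1609 and 1371 in EC1 and 1342 and 1251 in EC4. A list of 25 genes of lipid storage and fatty acid oxidation summed to 1822 to 1996 CPM in EC2, beside 1966 to 2198 in EC1, 1945 to 2174 in EC4 and 1334 to 1335 in EC3.

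Plvap and several other genes of EC1 and EC4 were low in EC2, whereas the list of fenestration and caveolae genes, most of them caveolar, summed to 7024 to 8293 CPM in EC2, 7648 to 7944 in EC1 and 7126 to 7184 in EC4. Plvap was at 114 and 34.3 CPM in EC2 against means of 3846 in EC1, 720 in EC3 and 3657 in EC4. Igfbp3, a binding protein of insulin-like growth factors, was at 109 and 677 CPM in EC2 and at means of 4853 in EC1 and 6570 in EC4. Emcn, a sialomucin of capillaries and veins, was at 555 and 694 CPM in EC2 at 4038 and 4063 in EC1 and at 3337 and 3221 in EC4. Ramp3, Insr and Btnl9 had means of 18.1, 29.5 and 112 CPM in EC2 and 660, 279 and 1004 in EC1. The tight junction gene Cldn5 was at 1272 and 908 CPM in EC2, next to 1248 and 1227 in EC3, whereas EC1 and EC4 had at most 21.5. The lymphatic genes Prox1 and Lyve1 had no UMI in EC2 of either sample and means of 119 and 316 CPM in EC3. Pan-endothelial genes were present in every fitted sample, with sums over 13 genes of 10683 to 13741 CPM.

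Among all genes, the 15 with the largest smallest ratio of EC2 to the other 3 labels (at least 50 CPM in EC2) included Timp4 and Aqp7 beside the chemokine gene Cxcl9, Cdh23, Prg4 (lubricin), Lnx1, the potassium channel gene Kcna5, the drug efflux pump gene Abcb1b, Ablim3 and Halr1. Cxcl9 was at 157 and 94.2 CPM in EC2 (33 UMIs in 10 of 37 cells and 11 UMIs in 7 of 29 cells) and at 0 in EC3 and EC4 of both samples. Ablim3 was at 199 and 257 CPM and Kcna5 at 104 and 197, with means in the other labels of at most 21.3 and 15.5. The same 15 genes held 4 transcripts of skeletal muscle, Acta1, Ckm, Tnnt3 and Tnnc2, each found in 6 to 8 of 37 EC2 cells in RW 1 and 4 to 7 of 29 in RW 2. A list of 7 muscle genes summed to 454 to 683 CPM in EC2, 8.97 to 33.8 in EC1, 17.6 to 41.8 in EC3 and 24.8 to 57.4 in EC4. The 15 genes also held Cfd, of which 23 of 29 UMIs in RW 1 lay in 1 cell, while the 9 adipocyte genes summed to 85.7 to 318 CPM in EC2, 32.9 to 43.6 in EC1, 81.8 to 89.7 in EC3 and 12.4 to 28.7 in EC4. Adipoq had no UMI in EC2 of RW and 2 in EC2 of all samples, and Lep had none.

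Marker detection was also compared cell by cell at equal depth. Each RW cell was thinned to 1000 UMIs, which left out 7 of 81 EC2 cells, 1 of 661 EC1 cells, 7 of 134 EC3 cells and 142 of 268 EC4 cells. Timp4 was then detected in 50% of EC2 cells (exact 95% interval 38.1 to 61.9%, unthinned 77.8%), in 3.15% of EC3 and 1.59% of EC4 cells, and in 0 of 660 EC1 cells (unthinned 1.06%), which at the thinned depth allows a share of cells with a UMI of up to 0.455%. Cd36 was detected in 86.5% of EC2 cells (unthinned 95.1%), 5.15% of EC1, 18.1% of EC3 and 4.76% of EC4 cells. Thyrocytes (label Th1, median 17624 UMIs against 3766 in EC2 of RW), which should lack it, gave 1.41% thinned and 8.24% unthinned. Fabp4 was detected in 100% of EC2 cells and 2.35% of thyrocytes at this depth, and Plvap in 9.46% of EC2 and 97.1% of EC1 cells. Lpl and Meox2 did not set EC2 apart from fibroblasts (label F, 11 of 120 cells left out). Lpl was detected in 45.9% of EC2 cells and 45.9% of fibroblasts, and Meox2 in 17.6% and 14.7%. Intervals here and below cover counting error only.

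RNA of other cell types in EC2 differed between samples. The mural list of 10 genes (smooth muscle and pericytes) summed to 2335 and 608 CPM in RW 1 and 2, 2395 and 1964 in aJ1aJ2 3 and 4, and 4979, 1408 and 7710 in aN1aN2 1, 2 and 3. Cnn1 was its only gene without a UMI. In RW 1 and RW 2 the same list summed to 68.8 to 80 CPM in EC1, 61.9 to 86.1 in EC4 and 2847 to 4617 in EC3. EC2 thus held more mural RNA than EC1 and EC4. The pericyte gene Rgs5 was found in 17 of 37 EC2 cells of RW 1 and 7 of 29 of RW 2. Globin and other erythroid genes, of which Slc4a1 had no UMI, summed to 338 to 1772 CPM in the fitted samples except aJ1aJ2 4, where 2901 of 3115 Hbb-bs UMIs lay in 1 cell and the sum was 11481. The 10 macrophage genes summed to 351 CPM in RW 1 and 0 to 42.9 in the other fitted samples, with Csf1r at 0 throughout. Thyrocyte genes summed to 681 to 1616 CPM, with Tshr at 0.

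Ligand blockade moved few EC2 genes, among them the marker gene Timp4 and the lipid genes Lpl and Pnpla2, which rose in calls that were lost without RW 1. Of 2508 genes tested, 48 passed an adjusted p under 0.05 (1.91%), 27 higher in aJ1aJ2 (1.08%) and 21 lower (0.837%). Calls here and below rest on the quasi-likelihood test of edgeR, adjusted by Benjamini-Hochberg over all tested genes. In these sums fewer transcripts per cell and a different mix of cells cannot be told apart. Timp4 was at 683 and 1071 CPM in RW 1 and 2 and at 2381 and 2186 in aJ1aJ2 3 and 4. The groups did not overlap, and Timp4 rose by 1.43 on the log2 scale (SE 0.23, adjusted p 0.0045). RW 3 and aJ1aJ2 1, outside the fit, had 1020 and 1186 CPM, and with these samples added the call was lost. Lpl was at 622 and 908 CPM in RW and 2080 and 1534 in aJ1aJ2, a log2 change of 1.28 (SE 0.26, adjusted p 0.019). Pnpla2, the first lipase of stored triglyceride, was at 75.9 and 111 CPM in RW and 189 and 225 in aJ1aJ2 (1.24, SE 0.29, adjusted p 0.04). Cd36 with 2857 and 2639 CPM in RW and 3488 and 3562 in aJ1aJ2 did not pass (0.38, SE 0.18, adjusted p 0.31). Nor did Aqp1 (0.51, adjusted p 0.24), Aqp7 (-0.19, adjusted p 0.72) or Fabp4 (-0.14, adjusted p 0.78).

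In the fatty acid uptake list of 27 genes, 14 were tested, 1 rose, none fell and the median log2 change was -0.16, against -0.01 over all tested genes. In the lipid storage and oxidation list, 10 of 25 genes were tested, 1 rose and none fell. None of 13 pan-endothelial, 8 caveolae and fenestration, 11 arterial or 11 VEGF and sprouting genes tested was called. The 4 Notch receptor and ligand genes and 6 Notch target genes with enough counts were not called either. With 1.91% of all tested genes called, lists of this size would hold few calls or none at that share. Hes1 was at 104 and 240 CPM in RW and 200 and 118 in aJ1aJ2, with groups that overlapped. Without RW 1 none of Timp4, Lpl and Pnpla2 was called, and Pnpla2 was not called without aJ1aJ2 4, without aN1aN2 1, which shares the estimate of the spread, or by DESeq2. With RW 3 and aJ1aJ2 1 added, neither Lpl (296 and 1371 CPM in those samples) nor Pnpla2 (132 and 171) was called.

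Of 10 shear and vasoactive genes tested under ligand blockade, Edn1 rose and Klf2 fell. Klf2, a flow-induced transcription factor, was at 1405 and 1739 CPM in RW and 687 and 669 in aJ1aJ2, and fell by 1.18 on the log2 scale (SE 0.21, adjusted p 0.0092) in every fit that left out 1 library. RW 3 was at 713 CPM and aJ1aJ2 1 at 1898, the opposite order, and with both added neither Klf2 nor Edn1 nor Jund was called. Edn1, the endothelin-1 gene, was at 52.2 and 25.7 CPM in RW and 114 and 157 in aJ1aJ2 (1.71, SE 0.41, adjusted p 0.044), and was not called without RW 1, RW 2, aJ1aJ2 4 or aN1aN2 1. Dnaja1, an Hsp70 co-chaperone, was at 612 and 583 CPM in RW and 180 and 169 in aJ1aJ2, a log2 change of -1.75 (SE 0.19, adjusted p 0.00034). Dnaja1 kept its call without any 1 library and with the 2 small samples, RW 3 (285 CPM) and aJ1aJ2 1 (264 CPM), added. Jund, a subunit of AP-1, fell by 1.32 (adjusted p 0.0049) and was not called without RW 1.

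The clock output genes Dbp and Nr1d1 rose within series B. Dbp had 2 UMIs in RW 1 and 0 in RW 2 against 74 and 94 in aJ1aJ2 3 and 4 (0 to 9.49 CPM against 212 and 189), a ratio of 33.1 with a 95% counting interval of 9.01 to 275 and an adjusted p of 0.00071. In series A, Dbp was at 121 CPM in RW 3 and 145 in aJ1aJ2 1, and with both added it was not called. Nr1d1 was at 19 and 25.7 CPM in RW and 155 and 163 in aJ1aJ2 (2.88, SE 0.39, adjusted p 0.0018), and was not called without RW 1. Of the glucocorticoid list, 2 genes were also called. Zbtb16, a zinc finger factor, had 74 UMIs in aJ1aJ2 and 1 in RW 1 and 2 together, 29.1 times by depth (95% counting interval 5.07 to 1166, adjusted p 0.0045). Map3k6 rose from 14.2 and 8.57 CPM to 85.8 and 82.3 (2.75, SE 0.57, adjusted p 0.019). Zbtb16 was not called without RW 1, nor Map3k6 without RW 1 or RW 2 or by DESeq2. In RW 3 and aJ1aJ2 1, Zbtb16 was at 32.9 and 0 CPM and Map3k6 at 43.9 and 39.5, which is no rise, and with both samples added neither was called. DESeq2 gave no adjusted p for Dbp, Nr1d1, Zbtb16 and Pik3ip1. Pik3ip1, an inhibitor of PI3 kinase, had 89 UMIs in aJ1aJ2 and 2 in RW, 17.5 times by depth (95% counting interval 4.71 to 147, adjusted p 0.0045), and was called without any 1 library. Pik3ip1 was at 65.8 CPM in RW 3 and 132 in aJ1aJ2 1, and was not called with both added.

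The remaining named genes concerned matrix, retinoids and immune transcripts. Timp3, a matrix metalloproteinase inhibitor, was at 541 and 703 CPM in RW and 1980 and 1873 in aJ1aJ2 (1.67, SE 0.31, adjusted p 0.0097). Cyp26b1, which degrades retinoic acid, was at 28.5 and 60 CPM in RW and 169 and 171 in aJ1aJ2 (2.09, SE 0.38, adjusted p 0.0092). Adh1, an alcohol and retinol dehydrogenase, rose by 1.90 (adjusted p 0.0097) and Bnip3, a mitophagy receptor, by 2.42 (adjusted p 0.015). None of these 4 was called without RW 1, and Timp3 was not called with RW 3 (1118 CPM) and aJ1aJ2 1 (1068 CPM) added. Aspn and Pacsin3 rose by 2.66 and 2.76 (adjusted p 0.04 and 0.036) and were not called without RW 1, nor Aspn without aN1aN2 1, nor Pacsin3 without RW 2, aJ1aJ2 3 or aN1aN2 1. Of the falls, Col15a1, Phospho1, Vwa1, Nedd9, Gbp3, Ifi27l2a, Igfbp7 and Rn7sk (log2 changes from -2.59 to -0.81) were each called in fewer than all fits without 1 library: RW 1 was needed for all of them but Phospho1, RW 2 for Col15a1, Gbp3 and Igfbp7, aJ1aJ2 3 for all but Ifi27l2a and Rn7sk, and aJ1aJ2 4 for all but Col15a1 and Nedd9. Of these and Aspn, 5 were tested with RW 3 and aJ1aJ2 1 added and lost the call (Aspn, Vwa1, Ifi27l2a, Igfbp7 and Rn7sk), and Col15a1 kept it. Cd74, the MHC class II chaperone, had 64 UMIs in RW and 10 in aJ1aJ2 (-3.86, SE 0.60, adjusted p 0.0045), but 54 of the RW UMIs lay in 1 cell of RW 1 and 10 in 1 cell of RW 2. The peptide gene Nts had 20 UMIs in 1 cell of RW 1 and 28 in 2 cells of RW 2 against 1 in aJ1aJ2 (ratio 122, 95% counting interval 20.9 to 4914).

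Receptor blockade, in series C, changed the lipid genes in both directions: Cd36, Lpl, Gpihbp1, Pnpla2, Angptl4 and Ucp2 rose, as did the marker gene Timp4, and Aqp7, Fabp5, Meox2, Tcf15 and Mgll fell. In aN1aN2 against RW, 388 of 2508 genes were called (15.5%), 222 higher (8.85%) and 166 lower (6.62%). Both comparisons used the same RW samples. Cd36 was at 2857 and 2639 CPM in RW 1 and 2 and at 8682, 8315 and 6892 in aN1aN2 1, 2 and 3. Each aN1aN2 sample was more than 2 times as high as any RW sample, RW 3 (2665 CPM) included, and Cd36 rose by 1.52 on the log2 scale (SE 0.18, adjusted p 3.6e-05). Lpl was at 622 and 908 CPM in RW and 2350, 3690 and 2239 in aN1aN2 (1.87, SE 0.26, adjusted p 0.00014). Gpihbp1 was at 1609 and 2425 CPM in RW and 4174, 4091 and 5510 in aN1aN2 (1.18, SE 0.21, adjusted p 0.00097). Transcripts of the lipase, its anchor and the uptake receptor were thus higher in each of the 3 samples than in RW 1 and RW 2. Their proteins were not measured. Timp4 rose by 0.96 (SE 0.22, adjusted p 0.0077), from 683 and 1071 CPM to 1964, 1760 and 1324, and was not called without RW 1. Fabp4 did not pass, with 27928 and 24066 CPM in RW and 26753, 17917 and 22019 in aN1aN2 (-0.24, SE 0.18, adjusted p 0.42). Aqp1 did not pass either (0.50, SE 0.20, adjusted p 0.096).

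The glycerol channel gene and the carriers and factors of the programme went the other way. Aqp7 was at 375 and 351 CPM in RW and 150, 109 and 77.9 in aN1aN2 (-1.64, SE 0.29, adjusted p 0.001). Fabp5 was at 1011 and 1448 CPM in RW and 526, 364 and 662 in aN1aN2 (-1.28, SE 0.23, adjusted p 0.0013). Meox2 fell from 289 and 317 CPM to 129, 121 and 175 (-1.15, SE 0.27, adjusted p 0.0092) and Tcf15 from 892 and 1054 to 655, 607 and 350 (-0.82, SE 0.23, adjusted p 0.022). Meox2 was not called without aN1aN2 1 or 2, and Tcf15 not without aN1aN2 3 or RW 2. Neither was called with RW 3 and aJ1aJ2 1 added. Nrp1, a VEGF co-receptor, fell by 1.28 (SE 0.26, adjusted p 0.0028), and the apelin receptor gene Aplnr by 2.65 (SE 0.57, adjusted p 0.0048), which was not called without RW 1. Scarb1, the lipoprotein receptor SR-B1, fell by 0.86 (adjusted p 0.045) and lost the call in all 7 fits without 1 library. Over the list, 3 of 14 tested genes rose and 7 fell, and the median log2 change was -0.53 against -0.02 over all tested genes. DESeq2 called 5 of the 7 falls.

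**Figure D2:**
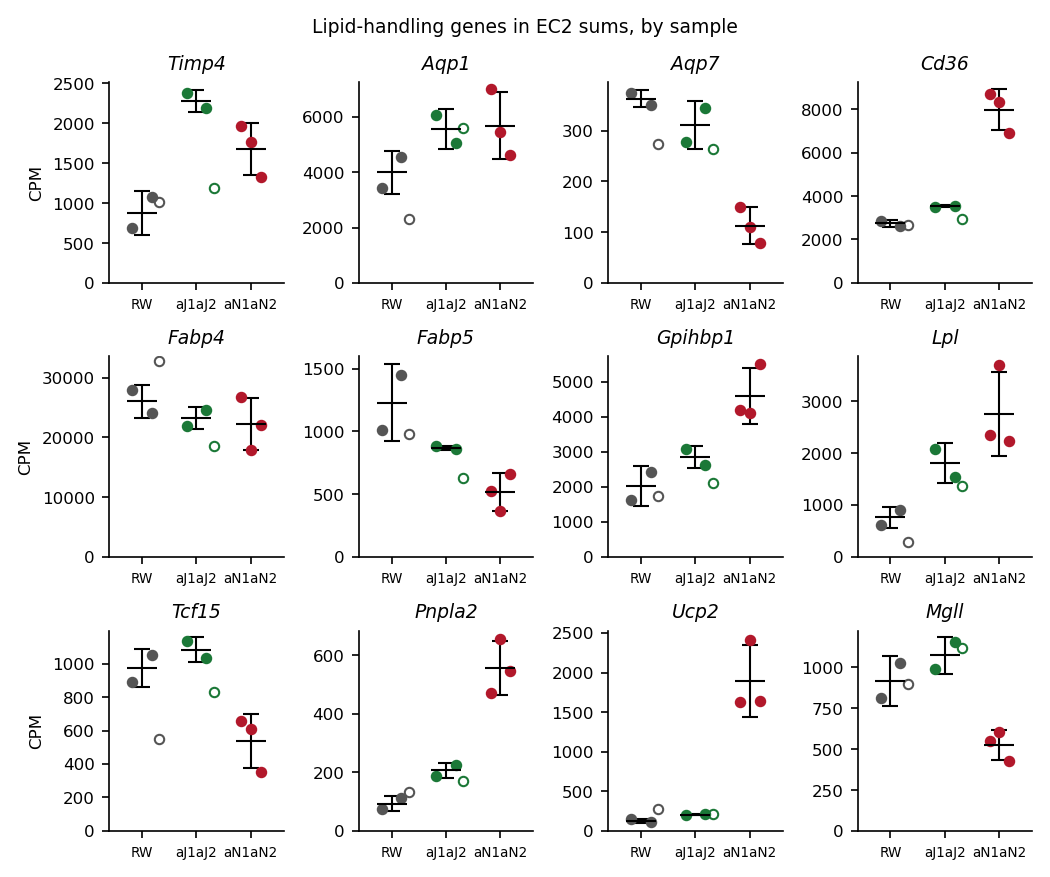
CPM in EC2 sums for 12 lipid-handling genes by group. Filled points are samples in the fit, bars their mean and SD, and open points RW 3 and aJ1aJ2 1, which were left out of it. Cd36, Pnpla2 and Ucp2 lay above every RW and aJ1aJ2 sample in all 3 aN1aN2 samples, and Aqp7 and Mgll below them.

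In the lipid storage and oxidation list, 3 of 10 tested genes rose and 1 fell. Ucp2, an uncoupling protein family member of the mitochondrial inner membrane, was at 147 and 111 CPM in RW and 1631, 2416 and 1635 in aN1aN2 (3.82, SE 0.27, adjusted p 9e-07). Every aN1aN2 sample was far above every RW and aJ1aJ2 sample, and the call held without any 1 library. Pnpla2 was at 75.9 and 111 CPM in RW and 472, 655 and 545 in aN1aN2 (2.61, SE 0.28, adjusted p 3e-05). Angptl4, a secreted inhibitor of Lpl, was at 19 and 17.1 CPM in RW and 161, 134 and 195 in aN1aN2 (3.06, SE 0.72, adjusted p 0.0085), and was not called without RW 1 or with RW 3 (132 CPM) and aJ1aJ2 1 added. Mgll, the monoglyceride lipase, fell from 812 and 1028 CPM to 547, 607 and 428 (-0.78, SE 0.21, adjusted p 0.022) and was not called without RW 2, aN1aN2 1 or aN1aN2 3. The other 6 tested genes of that list, among them Plin2, Lipe, Acadl and Hadha, did not pass.

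Capillary and junction genes also split under receptor blockade. Car4, the carbonic anhydrase of the capillary lumen, was at 218 and 240 CPM in RW and 1631, 2003 and 1149 in aN1aN2 (2.81, SE 0.26, adjusted p 5.3e-06). Cldn5 rose by 0.82 (SE 0.20, adjusted p 0.0097), from 1272 and 908 CPM to 1921, 2100 and 1869, and was not called without RW 2. Esam, another junction gene, rose by 0.93 (SE 0.18, adjusted p 0.0022), from 688 and 771 CPM to 1363, 1396 and 1441. The VEGF receptor gene Kdr was at 693 and 977 CPM in RW and 311, 121 and 136 in aN1aN2 (-2.06, SE 0.31, adjusted p 0.00035). Eng, a TGF-beta co-receptor, and Emcn fell by 1.11 and 0.99 (adjusted p 0.0055 and 0.017). Neither was called without RW 2, nor Emcn without aN1aN2 1 or 3. Across the 13 pan-endothelial genes 2 rose and 3 fell, and 4 of 11 tested capillary genes rose and 3 fell. In the VEGF and sprouting list Kdr, Nrp1 and Aplnr fell of 11 tested, and none rose.

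Among genes of caveolae and fenestrae, 4 of 8 tested fell and none rose. Cavin2 was at 1932 and 2065 CPM in RW and 955, 558 and 896 in aN1aN2 (-1.34, SE 0.20, adjusted p 0.0004). Cavin1, Cav2 and the caveolar ATPase gene Ehd2 fell by 0.76, 0.93 and 0.89 (adjusted p 0.012, 0.017 and 0.0076), while Cav1 did not pass (-0.55, adjusted p 0.054). The list's median log2 change was -0.66. Cavin1 was not called without RW 2 or aN1aN2 2 or with RW 3 and aJ1aJ2 1 added, nor Cav2 without RW 2, aN1aN2 2 or aN1aN2 3. Plvap, at 114 and 34.3 CPM in RW and 268, 72.8 and 175 in aN1aN2, did not pass (1.05, SE 0.53, adjusted p 0.21).

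Of 13 tested genes of basement membrane and matrix, 4 fell and 1 rose. Igfbp7 is not in that list and was the 1 fall among 5 tested genes of insulin-like growth factors and their binding proteins. Igfbp7 was at 3825 and 4421 CPM in RW and 1341, 1214 and 1265 in aN1aN2 (-1.71, SE 0.16, adjusted p 8.3e-06), with RW 3 at 7270. In the matrix list Hspg2, the basement membrane proteoglycan perlecan, was at 475 and 540 CPM in RW and 225, 218 and 117 in aN1aN2 (-1.37, SE 0.25, adjusted p 0.0014). Sparc, Sparcl1 and Col15a1 were the other falls in the matrix list, and Timp3 its only rise. Timp3 was at 541 and 703 CPM in RW and 2769, 1614 and 4166 in aN1aN2 (2.18, SE 0.30, adjusted p 0.00015). Among the aN1aN2 samples Timp3 followed the order of the mural sums (4979, 1408 and 7710 CPM), whose part in this result was not tested. Tagln, a smooth muscle gene, rose by 2.40 (adjusted p 0.03, not called without RW 2, aN1aN2 1 or aN1aN2 3) and was the 1 call among 6 tested mural genes. Of its UMIs, 31 of 37 in aN1aN2 1 and all 28 in aN1aN2 3 lay in 1 cell each, and aN1aN2 2 had 3.

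**Figure D3:**
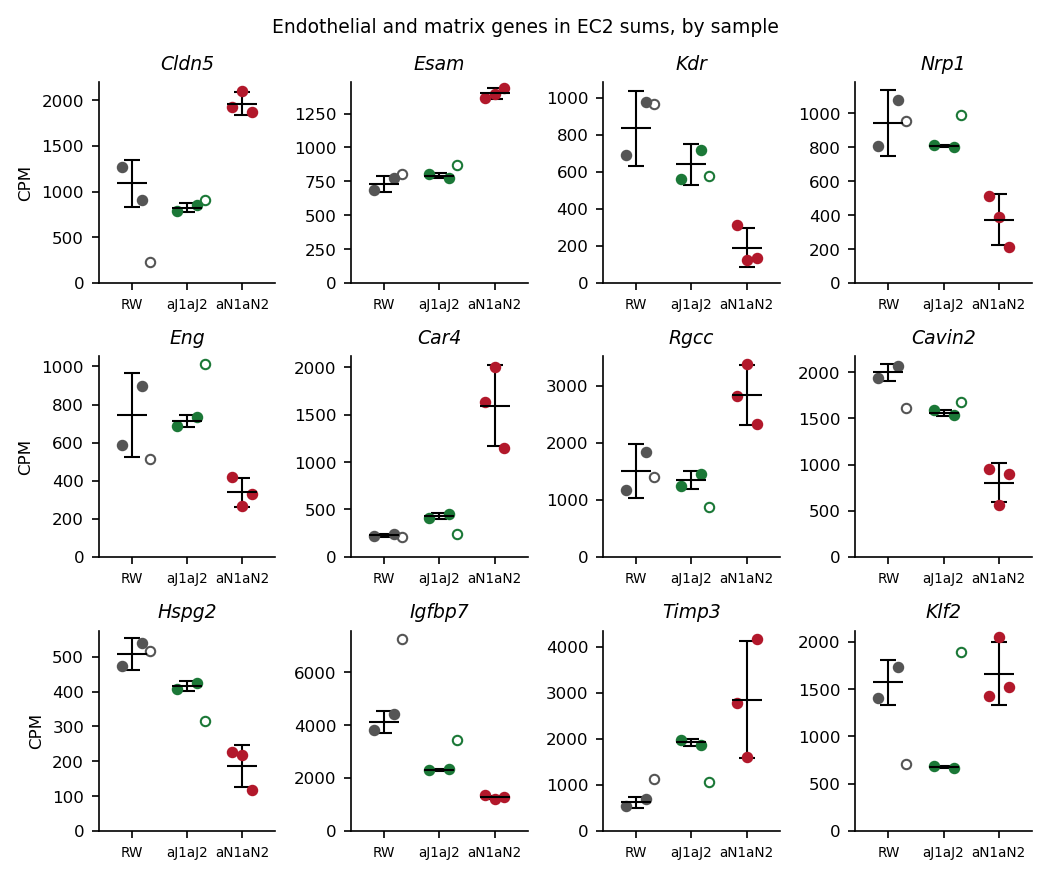
CPM in EC2 sums for 12 endothelial, caveolar and matrix genes by group, drawn as in the plot of lipid genes. Car4, Cldn5 and Esam were higher, and Kdr, Cavin2, Hspg2 and Igfbp7 lower, in all 3 aN1aN2 samples than in RW 1 and RW 2, while Klf2 was lower in aJ1aJ2 3 and 4 than in RW 1 and RW 2.

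Interferon-stimulated genes fell under receptor blockade, 8 of 17 tested with none rising and a median log2 change of -1.21. Their products include the guanylate-binding proteins and other GTPases that act on intracellular microbes, and tetherin (Bst2). Gbp3 had 27 UMIs in each of RW 1 and RW 2 (128 and 231 CPM) and 1, 0 and 0 in aN1aN2, a ratio of 37.9 (95% counting interval 6.53 to 1526, adjusted p 0.00045). Gbp7 was at 271 and 446 CPM in RW and 53.7, 85 and 38.9 in aN1aN2 (-2.49, SE 0.39, adjusted p 0.00044). Bst2 was at 679 and 1585 CPM in RW and 182, 291 and 214 in aN1aN2 (-2.28, SE 0.34, adjusted p 0.00028). These 3 were called without any 1 library. Iigp1 was at 342 and 745 CPM in RW and 75.1, 109 and 38.9 in aN1aN2 (-2.72, SE 0.42, adjusted p 0.00044). Cxcl9, one of the genes that set EC2 apart, had 44 UMIs in RW 1 and 2 and 1 in aN1aN2, a ratio of 30.9 (95% counting interval 5.27 to 1248, adjusted p 0.002). Gbp4 and Gbp2 fell by 2.85 and 1.56 (adjusted p 0.014 and 0.046) and neither was called without RW 2, aN1aN2 1 or aN1aN2 3, nor Gbp2 without aN1aN2 2. Ifi27l2a (-1.21, adjusted p 0.05) was called in only 1 of the 7 fits without 1 library, that without RW 2. Outside the list, Ifi203 was at 275 and 523 CPM in RW and 32.2, 12.1 and 0 in aN1aN2 (-4.40, SE 0.53, adjusted p 4.5e-05), and Gbp9 fell as well. The Gbp and Ifi200 genes are families of close copies, so reads may be split between members. The other 9 tested genes, among them Irf1, Irf7, Ly6a and Isg15, did not pass, and DESeq2 called 6 of the 8 falls. Gbp3 and Cxcl9 passed the filter on low counts through RW alone, so they could enter this count only as falls or as not called. Cxcl9 was also picked above for its high level in these same RW samples.

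The MHC class I list had 5 falls (H2-K1, H2-D1, H2-T23, Psmb8 and Psmb9) of 12 tested, with log2 changes from -1.45 to -0.74, and no rise. H2-K1 was at 1803 and 2433 CPM in RW and 1545, 1105 and 915 in aN1aN2 (-0.82, SE 0.21, adjusted p 0.016). None of the 5 was called without RW 2, each also lost its call without 1 or 2 of the aN1aN2 samples, and DESeq2 called 2. Under ligand blockade 2 of the 17 interferon genes passed (Gbp3 and Ifi27l2a, both lower, with no adjusted p in DESeq2) with a median of -0.94, and none of the class I genes.

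The promoters of 4 of the genes that fell are shown because they carry the interferon-stimulated response element searched as GAAA, any 2 bases and GAAA again, on both strands. RefSeq windows of the 250 bases before each gene start (GRCm38.p6; the 50 bases after the start were not searched) were found for 19 of 26 list genes, and 11 (57.9%) held it, against 936 of 27025 genes (3.46%). Each sequence below gives the 150 bases before the start, 5′ to 3′ on the gene's strand, with the match in capitals; where 2 matches overlap, the capitals run through both.

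Gbp2, chr3:142620513-142620662, plus strand: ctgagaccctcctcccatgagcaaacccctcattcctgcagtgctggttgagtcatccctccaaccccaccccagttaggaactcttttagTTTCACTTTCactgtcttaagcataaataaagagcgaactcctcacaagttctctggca
Gbp3 (first of 2 listed starts), chr3:142559894-142560043, plus strand: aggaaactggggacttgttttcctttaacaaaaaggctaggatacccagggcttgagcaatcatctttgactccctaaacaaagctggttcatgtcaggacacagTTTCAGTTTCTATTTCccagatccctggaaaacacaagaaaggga
Gbp7, chr3:142530186-142530335, plus strand: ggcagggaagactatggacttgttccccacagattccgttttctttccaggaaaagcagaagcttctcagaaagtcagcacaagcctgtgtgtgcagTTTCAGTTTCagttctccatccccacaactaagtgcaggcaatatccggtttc
Bst2, chr8:71537473-71537622, minus strand: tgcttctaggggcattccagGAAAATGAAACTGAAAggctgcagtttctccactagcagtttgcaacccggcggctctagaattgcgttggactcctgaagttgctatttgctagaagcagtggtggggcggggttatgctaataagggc

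In Gbp2, Gbp3 and Gbp7 the match began 59, 45 and 39, and 53 bases before the start, and in Bst2 130 and 124 bases before it. The element is a description of these windows and not a shown site of binding. Cxcl9 and the other listed start of Gbp3 held no such letters in the window, and Ifit1, Ifit3, Isg15 and Rsad2 held them and were not called.

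Glucocorticoid response genes rose under receptor blockade, 8 of 12 tested with none falling and a median log2 change of 1.90. These are genes that the glucocorticoid receptor is known to induce in many tissues. Fkbp5, a co-chaperone of that receptor, had 1 UMI in RW 1 and none in RW 2 against 22, 30 and 10 in aN1aN2 (236, 364 and 195 CPM), a ratio of 88.2 (95% counting interval 15.3 to 3541, adjusted p 3.6e-05). RW 3, outside the test, had 3 Fkbp5 UMIs (32.9 CPM). Tsc22d3, which encodes GILZ, was at 261 and 274 CPM in RW and 665, 571 and 993 in aN1aN2 (1.42, SE 0.25, adjusted p 0.0011). Map3k6 was at 14.2 and 8.57 CPM in RW and 258, 316 and 136 in aN1aN2 (4.26, SE 0.52, adjusted p 4.9e-05). Each of these was called without any 1 library. Zbtb16 had 1 UMI in RW and 31 in aN1aN2 (ratio 44.1, 95% counting interval 7.35 to 1798, adjusted p 0.00026). The metallothionein gene Mt1 rose from 94.9 and 60 CPM to 225, 571 and 331 (2.18, SE 0.40, adjusted p 0.0015), and Sult1a1, a sulfotransferase, from 289 and 360 to 1138, 947 and 857 (1.61, SE 0.21, adjusted p 9.1e-05). Cdkn1a, which encodes the cell cycle inhibitor p21 and also stood in the Notch target list, was at 218 and 463 CPM in RW and 1567, 1918 and 1363 in aN1aN2 (2.31, SE 0.28, adjusted p 4.5e-05). Errfi1 rose by 2.42 (adjusted p 0.022) and was not called without RW 2 or aN1aN2 3. Per1, Klf9, Sgk1 and Dusp1 did not pass. Fkbp5 passed the filter on low counts through aN1aN2 alone, and Zbtb16 and Map3k6 were too low in RW to fall detectably. The count of rises and the median are therefore partly set by the filter.

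The promoters of Map3k6 and Mt1 are shown because they hold a palindromic glucocorticoid response element, searched as GNACA, any 3 bases and TGTNC, with N for any base, on both strands. Of 14 list genes with a window, 3 (21.4%; Sgk1, Mt1 and Map3k6) held it, against 119 of 27025 genes (0.44%). The 250 bases before the start are given as above.

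Map3k6, chr4:133240568-133240817, plus strand: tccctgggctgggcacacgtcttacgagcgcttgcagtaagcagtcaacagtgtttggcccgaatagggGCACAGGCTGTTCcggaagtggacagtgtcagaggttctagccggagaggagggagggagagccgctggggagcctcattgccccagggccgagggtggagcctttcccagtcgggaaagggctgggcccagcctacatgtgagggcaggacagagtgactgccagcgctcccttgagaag
Mt1, chr8:94178839-94179088, plus strand: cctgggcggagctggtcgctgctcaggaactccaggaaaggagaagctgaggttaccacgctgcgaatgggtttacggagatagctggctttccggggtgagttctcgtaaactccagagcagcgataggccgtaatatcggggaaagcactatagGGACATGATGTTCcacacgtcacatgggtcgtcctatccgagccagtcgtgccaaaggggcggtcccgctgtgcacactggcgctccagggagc

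The match lay 181 bases before the start in Map3k6 and 94 in Mt1. Fkbp5, Tsc22d3 and Zbtb16 held no such letters in the windows listed.

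**Figure D4:**
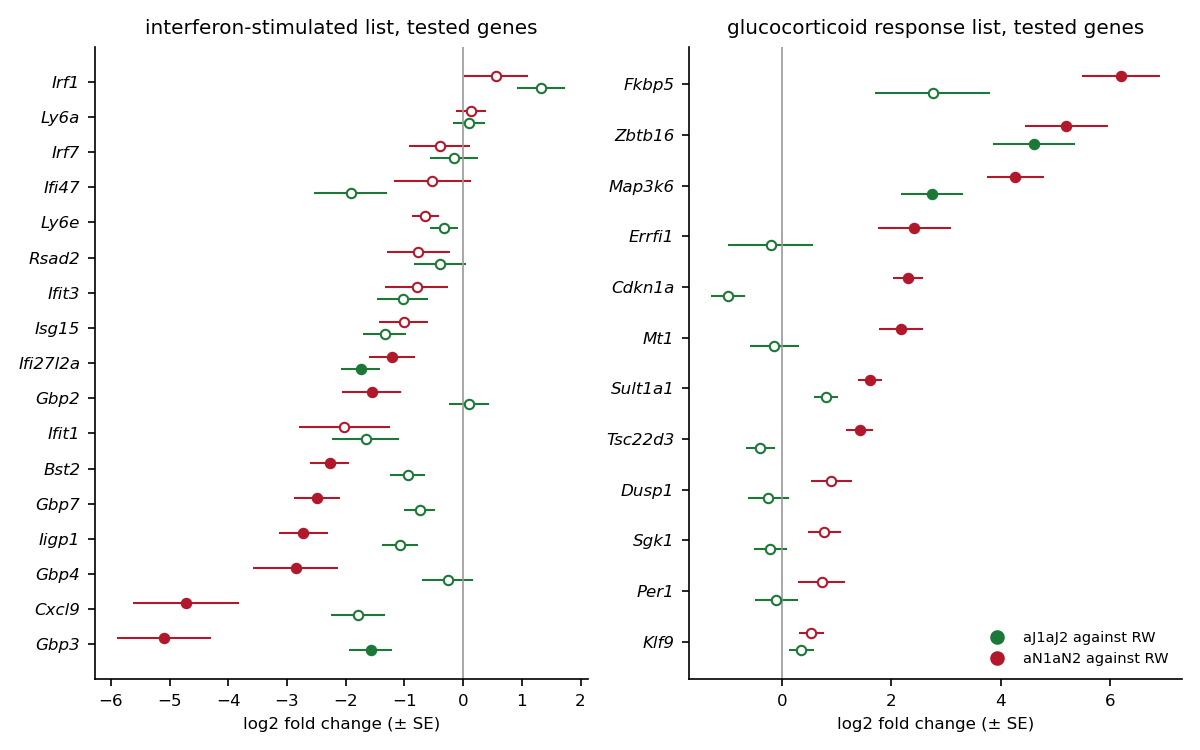
Log2 fold change against RW with its SE for the tested genes of the interferon list (left) and the glucocorticoid list (right), in aJ1aJ2 (green) and aN1aN2 (red). Filled points passed an adjusted p under 0.05, which were 8 falls of 17 and 8 rises of 12 in aN1aN2, and 2 falls and 2 rises in aJ1aJ2.

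Of the Notch lists, 4 of 9 receptor and ligand genes and 6 of 16 targets had enough counts to be tested. Of the 4 receptor and ligand genes tested, Notch1, Notch4, Jag2 and Dll4, none was called in either comparison with RW. Among the targets, Cdkn1a, given above, rose and 1 gene fell. Ccnd1, which encodes cyclin D1, had 46 and 12 UMIs in RW 1 and 2 and 0 in the 3 aN1aN2 samples. Ccnd1 was therefore at least 13.6-fold lower, taking a floor of 3 counts over the group (adjusted p 0.00086). This bound was 7.75 without RW 1, 7.93 without aN1aN2 1 and 8.75 without aN1aN2 2. Hes1 was at 104 and 240 CPM in RW and 140, 194 and 195 in aN1aN2 (0.11, SE 0.40, adjusted p 0.9). Hey1, with 20 UMIs in RW and 2 in aN1aN2, did not pass (adjusted p 0.12).

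Among the largest changes over all genes, Maff, a small Maf factor, was at 19 and 0 CPM in RW and 215, 364 and 331 in aN1aN2 (4.53, SE 0.55, adjusted p 4.9e-05). Pik3ip1 and the glutathione peroxidase gene Gpx3 rose, Pik3ip1 with 2 UMIs in RW and 33 in aN1aN2 (ratio 23.5, 95% counting interval 6.01 to 202), and with RW 3 at 65.8 CPM and aJ1aJ2 1 added the log2 change of Pik3ip1 was 2.84 in place of 4.42 and still called. Lrg1, a secreted glycoprotein and the 1 rise among 5 tested venous genes, had 3 UMIs in RW 1 and 2 and 43 in aN1aN2 (ratio 20.4, 95% counting interval 6.53 to 103, adjusted p 0.0015), but 13 in RW 3, and with RW 3 and aJ1aJ2 1 added it was not called. Doc2b had no UMI in RW or aJ1aJ2 and 5, 11 and 6 in aN1aN2, at least 10.4-fold higher than the floor in RW (adjusted p 0.022), and was not called without RW 1 (bound 3.79) or RW 2 (bound 6.65). Spock2 and 2900041M22Rik rose from 1 UMI each to 28 and 32, and Spock2 was not called without RW 1. Vwa1, a basement membrane gene, and Mmp15, a membrane-bound metalloproteinase, had 50 and 48 UMIs in RW and 1 and 3 in aN1aN2. Phospho1 fell from 40 UMIs to 2, and Cd74, the 1 tested gene of the MHC class II list, from 64, all in 2 cells, to 1. AY036118 fell from 755 and 1345 CPM to 32.2, 48.6 and 38.9 (-4.69, SE 0.37, adjusted p 1.1e-06), with RW 3 at 121. This fall was not particular to EC2. Over the UMIs of all cells AY036118 was at 473, 725 and 131 CPM in RW 1, 2 and 3. The aJ1aJ2 samples had 245, 652 and 520, and aN1aN2 1, 2 and 3 had 35.7, 26.8 and 33.5. 

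In the remaining lists, the shares of rises and falls can be read against 8.85% and 6.62% over all tested genes. Among 11 arterial genes Stmn2 fell from 190 and 291 CPM to 75.1, 12.1 and 19.5 (-2.55, SE 0.47, adjusted p 0.0015), Alpl fell and the semaphorin gene Sema3g rose. Among 10 shear and vasoactive genes Ednrb rose, from 99.7 and 171 CPM to 290, 364 and 409 (1.42, SE 0.29, adjusted p 0.003). Sema3g and Ednrb were not called without RW 1, nor Ednrb with RW 3 (296 CPM) and aJ1aJ2 1 added, nor Sema3g without aN1aN2 2, nor Alpl without aN1aN2 1 or 3. Of 13 transcripts of the mitochondrial genome 3 rose (mt-Co2, mt-Co3 and mt-Atp6, by 0.93, 1.31 and 1.09), of which mt-Co3 was called without any 1 library. That list summed to 42478 and 45715 CPM in RW, and in aN1aN2 to between 44224 and 73027. The mitochondrial ribosomal RNA genes mt-Rnr1 and mt-Rnr2, which are not in the list, were called lower in aN1aN2. Of 12 endoplasmic reticulum genes Xbp1 and Dnajb9 rose and Hsp90b1, Calr and Pdia6 fell, each losing its call without RW 1 or RW 2. Of 8 immediate early genes, which also respond to tissue digestion, Ier3, Zfp36 and Btg2 rose, and Ier3 alone was called without any 1 library. Igfbp4 and the adiponectin receptor gene Adipor2 rose, Igfbp4 not without RW 2 or aN1aN2 3. Igfbp4 and Dnajb9 were not called with RW 3 and aJ1aJ2 1 added. The muscle gene Acta1 rose by 0.91 (adjusted p 0.043), the 1 call among 5 tested muscle genes, and was not called by DESeq2. Muscle sums were 454 and 683 CPM in RW and between 719 and 1265 in aN1aN2, and their part in the result was not tested.

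Set against each other, receptor and ligand blockade differed in 264 of 2508 EC2 genes (10.5%), 145 higher in aN1aN2 (5.78%) and 119 lower (4.74%), with series again inseparable from group. Cd36 was higher in aN1aN2 (1.14, SE 0.17, adjusted p 0.00052), as were Ucp2 (3.18, SE 0.24, adjusted p 1.8e-06), Pnpla2 (1.37, SE 0.22, adjusted p 0.00074) and Car4 (1.86, SE 0.23, adjusted p 7.8e-05). Aqp7 was lower (-1.45, SE 0.27, adjusted p 0.0027), and so were Tcf15 (-1.01, adjusted p 0.006), Mgll (-1.05, adjusted p 0.0032) and Kdr (-1.74, adjusted p 0.0014). Timp4 and Lpl, which rose in each against RW, did not differ detectably between the blockades (-0.47 and 0.59, SE 0.20 and 0.23, adjusted p 0.17 and 0.13). Of 12 tested glucocorticoid genes 9 were higher and none lower, and of 17 interferon genes 6 were lower and none higher. Fkbp5 entered the test here too through aN1aN2 alone. DESeq2 called 7 of the 9 glucocorticoid genes and 4 of the 6 interferon genes. None of those 6 (Gbp2, Gbp3, Gbp4, Gbp7, Iigp1 and Bst2) was called without aN1aN2 1, whereas Fkbp5, Tsc22d3, Mt1, Cdkn1a and Map3k6 of the glucocorticoid list were called without any 1 library. Klf2 was at 687 and 669 CPM in aJ1aJ2 3 and 4 and 1427, 2051 and 1519 in aN1aN2 (1.26, SE 0.20, adjusted p 0.00075), a call lost with aJ1aJ2 1 (1898 CPM) and RW 3 added. Edn1 was at 114 and 157 CPM against 10.7, 12.1 and 38.9 (-2.96, SE 0.56, adjusted p 0.0027, not called without aJ1aJ2 4). Dbp had 168 UMIs in aJ1aJ2 and 0 in aN1aN2, so that it was at least 15.5-fold lower in aN1aN2 (adjusted p 0.0001), a bound of 9.04 without aN1aN2 1 and 9.97 without aN1aN2 2.

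Tmem252 was at 11.4 and 2.01 CPM in aJ1aJ2 and 504, 583 and 273 in aN1aN2 (6.12, SE 0.51, adjusted p 2.2e-06), and it was also among the rises against RW. Apold1, an endothelial early response gene, was at 11.4 and 62.2 CPM in aJ1aJ2 and 215, 631 and 350 in aN1aN2 (3.25, SE 0.51, adjusted p 0.00063). The zinc transporter gene Slc39a14 and Depp1 were higher in aN1aN2 by 3.71 and 2.86, and Gm26870, Slc26a10 and 9930111J21Rik2 lower with 3 UMIs each against 257, 92 and 77. The rises of Tmem252, Apold1, Slc39a14 and Depp1 and the falls of Gm26870 and Slc26a10 held without any 1 library. The fall of 9930111J21Rik2 was not called without aN1aN2 2 or 3.

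Whether EC2 responded differently from the other endothelial labels was tested as the difference of the 2 log2 changes, with the sample as a block. Under ligand blockade 35 of 6899 genes differed from EC1 (0.507%), 4 of 4786 from EC3 (0.0836%) and 4 of 4004 from EC4 (0.0999%). Under receptor blockade these were 94 (1.36%), 52 (1.09%) and 67 (1.67%). Cd36 rose in EC2 from a mean of 2748 to 7963 CPM in aN1aN2, in EC1 from 62.8 to 626, in EC3 from 345 to 2337 and in EC4 from 73 to 724. The log2 change was therefore smaller in EC2, by 1.86 against EC1 (SE 0.24, adjusted p 6.6e-08), 1.30 against EC3 (adjusted p 0.034) and 1.67 against EC4 (adjusted p 0.0026), although the level stayed highest in EC2. Fabp4 showed the same order, at 25997 and 22230 CPM in EC2 and 1520 and 2378 in EC1 (difference -0.90, SE 0.14, adjusted p 9e-06). Tcf15 fell from 973 to 537 CPM in EC2 and was at 174 and 297 in EC1 (-1.61, SE 0.24, adjusted p 2.2e-06) and 104 and 290 in EC4 (-2.31, SE 0.37, adjusted p 0.0001). The differences of Cd36 against EC3 and EC4 were not called without RW 2 or any 1 aN1aN2 sample, and without RW 1, respectively.

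Car4, Timp3, Ednrb and Aqp1 responded differently in EC2 and EC1. Car4 was at 229 CPM in EC2 and 530 in EC1 of RW, and at 1594 and 622 in aN1aN2 (difference 2.56, SE 0.24, adjusted p 2.4e-12). Timp3 went from 622 to 2850 CPM in EC2 and from 2952 to 3835 in EC1 (1.74, SE 0.22, adjusted p 6.6e-08), and under ligand blockade to 1927 and 3339 (1.54, SE 0.23, adjusted p 2e-05). Ednrb, the endothelin B receptor gene, went from 136 to 354 CPM in EC2 and from 1112 to 544 in EC1 (2.47, SE 0.30, adjusted p 2.1e-08). Aqp1 diverged, from 3993 to 5687 CPM in EC2 and from 410 to 171 in EC1 (1.83, SE 0.24, adjusted p 1.5e-07), and under ligand blockade to 5568 and 248 (1.28, SE 0.24, adjusted p 0.0016). Each of these 6 differences from EC1 was called without any 1 library. The fall of Ifi203 was deeper in EC2, from 399 to 14.8 CPM, than in EC1, from 410 to 161 (-3.12, SE 0.55, adjusted p 9.4e-05), and than in EC4 (-3.19, SE 0.59, adjusted p 0.00089). Against EC3, Ucp2 (2.17, SE 0.37, adjusted p 0.0072) and Lpl (2.55, SE 0.48, adjusted p 0.015) rose more in EC2, where Lpl went from 765 to 2760 CPM and in EC3 from 102 to 59.7.

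**Figure D5:**
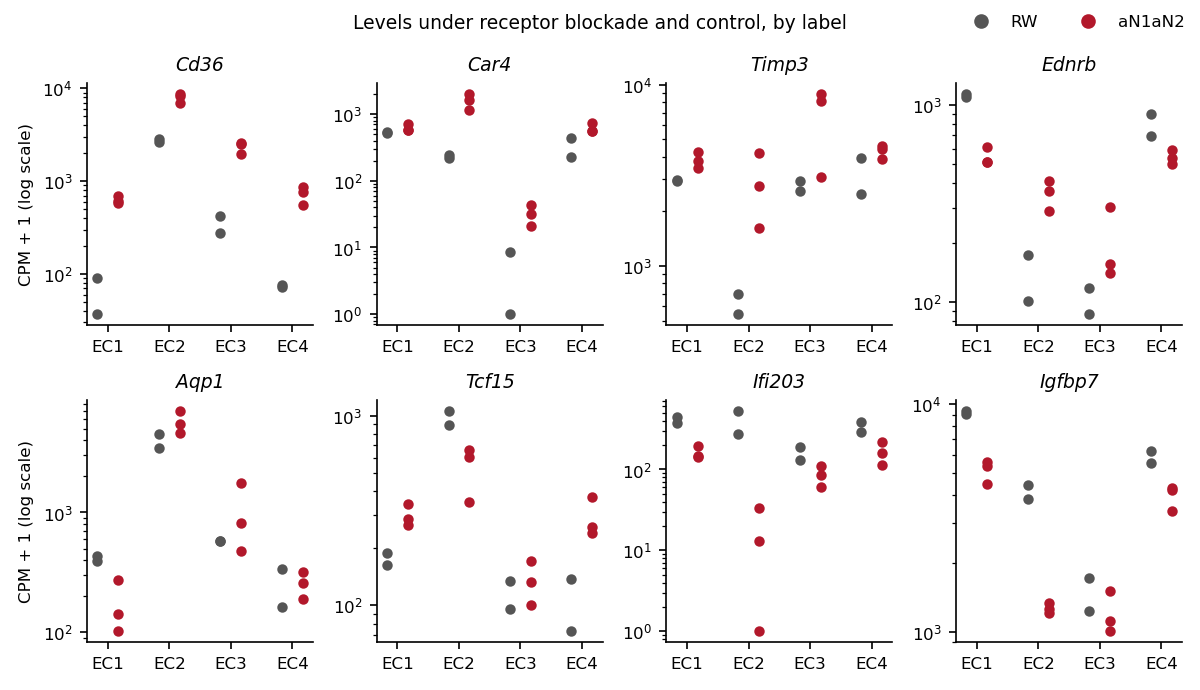
CPM + 1 on log axes for 8 genes in EC1, EC2, EC3 and EC4, with RW 1 and RW 2 in grey and aN1aN2 1, 2 and 3 in red (1 point per sample). Cd36 was higher in aN1aN2 in all 4 labels and stayed highest in EC2, Car4 passed the level of EC1, and Aqp1 diverged between EC2 and EC1.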

How the data were processed

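Thyroids of 6 mice per sample were pooled, digested and profiled with the 10x Genomics 3' v2 kit, per the labels' protocols. The authors deposited whole-number UMI counts per gene and cell and an annotation of cell labels. Cell Ranger and GRCm38 are named in the submitters' processing notes. The aligner's settings, the doublet treatment and the clustering are not given in the sources used here. Deposited cells and labels were used as they stand, with no further cell filter or doublet removal. In the annotation 2619 broken lines were repaired, and the UMI totals then equalled the annotated ones in all 10186 cells. Of 52636 gene IDs, 233 had no matching symbol (0.0293% of UMIs).

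UMIs were summed over EC2 cells per sample and divided by the EC2 total for CPM. Samples with at least 20 EC2 cells entered edgeR 4.0.16 (R 4.3.3): filterByExpr (minimum count 10), TMM, and a quasi-likelihood fit over the 3 groups. P-values were adjusted by Benjamini-Hochberg over all tested genes, with 0.05 as the threshold, and the SE is the absolute log2 change divided by the square root of F. Differences between labels were interaction terms with the sample as a block. DESeq2 1.42.0 was an alternative. The scripts were tested on simulated data.

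The members and gene lists were chosen with earlier results of these data known. Named genes were the marker genes, every called list gene and, per comparison, up to 10 rises and 10 falls with groups that did not overlap and at least 20 CPM in the higher group. For differences between labels these were 5 each way, and for identity 15 genes. A fold against 1 to 3 UMIs is given with an exact 95% counting interval, and against 0 with a floor of 3 counts over the group. Promoters are RefSeq windows, GRCm38.p6.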

Additional observations from a re-analysis of the deposited data

Results flagged for a closer look

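The genes below were picked out because their response in EC2 differed from that in another endothelial label by the test of the difference (edgeR's quasi-likelihood test, adjusted p under 0.05). Values are the log2 change in EC2 minus that in the other label, and where a group has 0 to 3 UMIs the fitted value depends on the prior count and is no bound.

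Under ligand blockade 35 genes differed from EC1. Sik1 (3.49), Ptpn9 (3.40), Hba-a2 (3.22), Egr1 (3.15) and Hba-a1 (3.05) were highest in EC2 by this measure, and Apod (-8.88), Gas7 (-7.72), Slco2a1 (-5.68), Col15a1 (-2.11) and Phospho1 (-1.87) lowest. Without aJ1aJ2 4, in which 1 cell held most Hbb-bs UMIs, the differences of Hba-a2 and Hba-a1 reversed to -0.497 and -0.055. Of the Egr1 UMIs of EC2 in aJ1aJ2, 178 of 185 were in aJ1aJ2 4, and without that sample Egr1 was not called. The 35 Apod UMIs of EC2 in RW lay in 1 cell of RW 1, and Apod was not called without RW 1 or aJ1aJ2 4. Under receptor blockade 94 genes differed from EC1, with Rcan2 (9.03), Gja4 (5.76), Hbb-bt (4.88), Cd24a (3.19) and Hba-a1 (2.75) at one end and Apod (-14.28), Baiap2 (-8.11), Nolc1 (-7.97), Prkaca (-7.80) and Dach1 (-4.13) at the other. Rcan2 had 18 UMIs in EC2 of aN1aN2 and 0 in RW and was not called without RW 1, and Dach1 lost its call without each of the 7 samples in turn.

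From EC3, 4 genes differed under ligand blockade: Rgs5 (4.06), Steap4 (3.38), Nts (-7.85) and Col15a1 (-3.47). Col15a1 and Nts were not called without aJ1aJ2 3, nor Steap4 without aJ1aJ2 3 or RW 1, and with at least 10 cells per sample none of the 4 was called. Under receptor blockade 52 did, with Rcan2 (9.60), Col3a1 (9.38), Gas1 (8.39), Gm14964 (7.86) and Mnd1 (7.09) above and Ifi203 (-3.66), Plekho1 (-3.42), Fam198b (-3.37), Tmem255b (-3.19) and Cd200 (-2.95) below. Of these 10, Cd200 was called without any 1 library. Each of the others lost its call without at least 1 of them: Rcan2 without RW 1, Col3a1, Gas1, Gm14964, Mnd1 and Tmem255b without aN1aN2 1 among others, Plekho1 and Fam198b without aN1aN2 3, and Ifi203 without each aN1aN2 sample. With at least 10 cells per sample Col3a1, Gas1, Gm14964, Mnd1, Fam198b and Tmem255b were not called. Rgs5 is a pericyte gene, and the mural sums given above differed between EC2 samples, whose part in these values was not tested.

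From EC4, 4 genes differed under ligand blockade: Tsc22d1 (1.62), Timp3 (1.48), Gm26917 (-2.81) and Col15a1 (-2.68). Timp3 and Tsc22d1 were not called without aN1aN2 1 or RW 1, nor Gm26917 without aJ1aJ2 3 or RW 1, and with at least 10 cells per sample Tsc22d1 and Gm26917 were not called. Under receptor blockade 67 did, with Cd24a (3.16), Hecw2 (2.24), Btnl9 (2.20), Samd9l (2.19) and Ednrb (2.09) above and Ddit4 (-3.68), Ifi203 (-3.19), Gda (-3.06), Cyp26b1 (-2.88) and Polr2f (-2.87) below. Ddit4 and Ifi203 were called without any 1 library. Cd24a was not called without aN1aN2 1, Cyp26b1 without RW 2, or Ednrb and Gda without RW 1, and Hecw2, Polr2f, Btnl9 and Samd9l each lost the call without any of at least 3 libraries, aN1aN2 1 among them. With at least 10 cells per sample Cd24a, Btnl9, Samd9l, Gda and Cyp26b1 were not called.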

How the results depend on the processing

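Called genes numbered 48 for aJ1aJ2 against RW, 388 for aN1aN2 against RW and 264 for aN1aN2 against aJ1aJ2. DESeq2 called 19, 252 and 167, and gave an adjusted p for all of the 388 and the 264 but none for 18 of the 48. Samples reduced to 23 EC2 cells each gave 13, 229 and 103. The ligand blockade count was 150 without the filter on low counts, 14 with at least 10 EC2 cells or with at least 1 cell per sample (so with RW 3 and aJ1aJ2 1), 26 with series as a covariate and at least 10 cells (14 without the covariate) and 80 with each gene summed without its highest cell, the last 2 chosen after seeing the data. The share of higher calls moved for aJ1aJ2 against RW from 56.3% to 67.3% without the filter, 68.8% without the highest cell, 70.2% without aJ1aJ2 3 and 23.1% without RW 1, and for aN1aN2 against aJ1aJ2 from 54.9% to 39.4% without the filter. Leaving out each sample gave 13 (without RW 1) to 58, 257 (without RW 1) to 405, and 185 to 322 genes. For differences from EC1 these were 20 (without aJ1aJ2 4) to 45 under ligand and 70 to 93 under receptor blockade. From EC3 they were 5 to 13 and 11 (without aN1aN2 3) to 76, and from EC4 2 (without aN1aN2 1) to 17 and 32 (without RW 1) to 70. With at least 10 cells, 22 genes differed from EC1, 0 from EC3 and 8 from EC4 under ligand blockade and 27 from EC3 under receptor blockade. Without the filter these were 22 and 108 from EC3 and 8 from EC4 under ligand blockade. Leaving out 1 sample moved the difference from EC1 under ligand blockade between -0.497 (without aJ1aJ2 4) and 5.14 (without aJ1aJ2 3) for Hba-a2, and between -0.055 and 5.02 without the same samples for Hba-a1. Of the values for named genes, 3779 of 4598 kept direction and side of the threshold, 809 lost the call, 8 gained it and the 2 globin values reversed. RW and aN1aN2 share the numbers 1 and 2, and their deviations correlated at 0.0555, so the samples share only a number. The replicate block on these 4 samples gave 323 calls against 286 without it. The cause of these shifts was not tested. Depth limits low genes most in aN1aN2 3, with 51365 UMIs in its EC2 sum.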
